A study of Mus musculus with 9 samples.

Results

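Genes that set which fuel a muscle cell burns were followed in spontaneously beating colonies grown from mouse fat. Members were 10 genes chosen by name: the pyruvate dehydrogenase kinases Pdk1, Pdk2, Pdk3 and Pdk4, the carnitine palmitoyltransferases Cpt1a and Cpt1b, the glucose transporters Slc2a1 and Slc2a4, the hexokinase Hk2 and the fatty acid-binding protein Fabp3. Each was read from the row of the array that the annotation gives to that symbol alone. Of the 10 genes, 9 had such a row; Cpt1b is named by the annotation only on a row shared with another gene and was not analysed here. Where a gene had several rows, as only Fabp3 did, the one with the highest mean over the 8 beating and non-beating arrays was used. The members make up 9 of 19938 genes read from 33323 transcript clusters, probe groups that each stand for a gene or a piece of one.

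The stromal vascular fraction (SVF), the cells of adipose tissue that remain when mature fat cells are removed, was isolated from subcutaneous fat of C57BL6/J mice labelled as 10 weeks old. All samples were untreated primary cultures without a genetic change, in minimal growth medium. On day 28 the beating colonies were picked by hand as the beating group (n = 4), each sample combining 2 or 3 dishes of 1 lot, and the other cells of the dish formed the non-beating group (n = 4). The round sample was 1 pool of 6 round cells picked on day 14. Hand-picked colonies can hold other cells of the dish.

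Pyruvate dehydrogenase kinases phosphorylate the pyruvate dehydrogenase complex and so slow the entry of pyruvate, made from glucose or lactate, into the citric acid cycle. Carnitine palmitoyltransferase 1 on the outer mitochondrial membrane controls the entry of long-chain fatty acids into mitochondria, with Cpt1a as the widespread isoform and Cpt1b as the isoform of muscle and heart. Slc2a1 (GLUT1) carries glucose in most growing cells, Slc2a4 (GLUT4) is the insulin-responsive transporter of muscle and fat, Hk2 traps glucose by phosphorylation, and Fabp3 carries fatty acids through the cytosol of heart and skeletal muscle. The heart turns from glucose and lactate towards fatty acids after birth, and Pdk4 is known to rise with fasting and with fatty acid use.

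Values are log2 signals and include background, so a fold is a ratio of signals and not of transcript amounts. Array medians lay between 3.08 and 3.17 in the 8 day 28 samples and at 3.54 in the round pool. The median difference between beating and non-beating samples over all clusters was 0.0073 on the log2 scale. Skeletal muscle markers were higher in the beating samples, 10 of 10, with a list mean of 8.67 to 9.01 against 3.36 to 3.71 (log2 signal, lowest and highest array). Neb, Myh3, Myh1 and Casq1, of the sarcomere and its calcium store, led them, with log2 differences of 6.32 to 6.88. Of the 8 genes on the heart list, Myl4 (32.0-fold) and Myh6 were higher and 6, among them Tnni3, Nppa and Ryr2, did not pass the test. Whether Myl4 marks heart rather than skeletal muscle in these samples was not tested. Of the 8, 4 lay below the array medians on all 8 arrays, Nppa, Ryr2 and Myh6 among them, where a difference may not show. Myh6 stayed below the array medians, at 2.77 ± 0.094 against 2.36 ± 0.074 (SD, n = 4 each). Each difference is beating minus non-beating, fitted with limma on the whole table, and a gene was called higher or lower at a two-sided Benjamini-Hochberg adjusted p under 0.05. Whether the 4 samples of each group stem from different lots or animals is not in the labels, so p-values measure the spread between these samples, which may be technical. Precision is limited by having 4 arrays a group. In bulk samples, more cells of a type and more RNA per cell cannot be told apart.

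Of the 9 members, Pdk4 and Fabp3 were higher in the beating samples, Pdk3 was lower and the remaining 6 failed to pass. Over all clusters 2.82% were higher and 3.34% lower by the same rule, 6.16% in all. At an unadjusted p under 0.05, 6 of the 9 members passed limma's test, against 20.9% of all clusters. By the methods' two-sample test with adjustment, 1.47% of all clusters were higher and 1.13% lower, and of the members Pdk4 and Fabp3 passed. The median difference of the 9 members was 0.084 on the log2 scale, with 5 above 0. Beating and non-beating arrays did not overlap for 5 members, Pdk2, Pdk4 and Fabp3 above and Pdk3 and Cpt1a below, against 5.98% of all clusters above, 8.24% below and 14.2% in all.

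**Figure D1:**
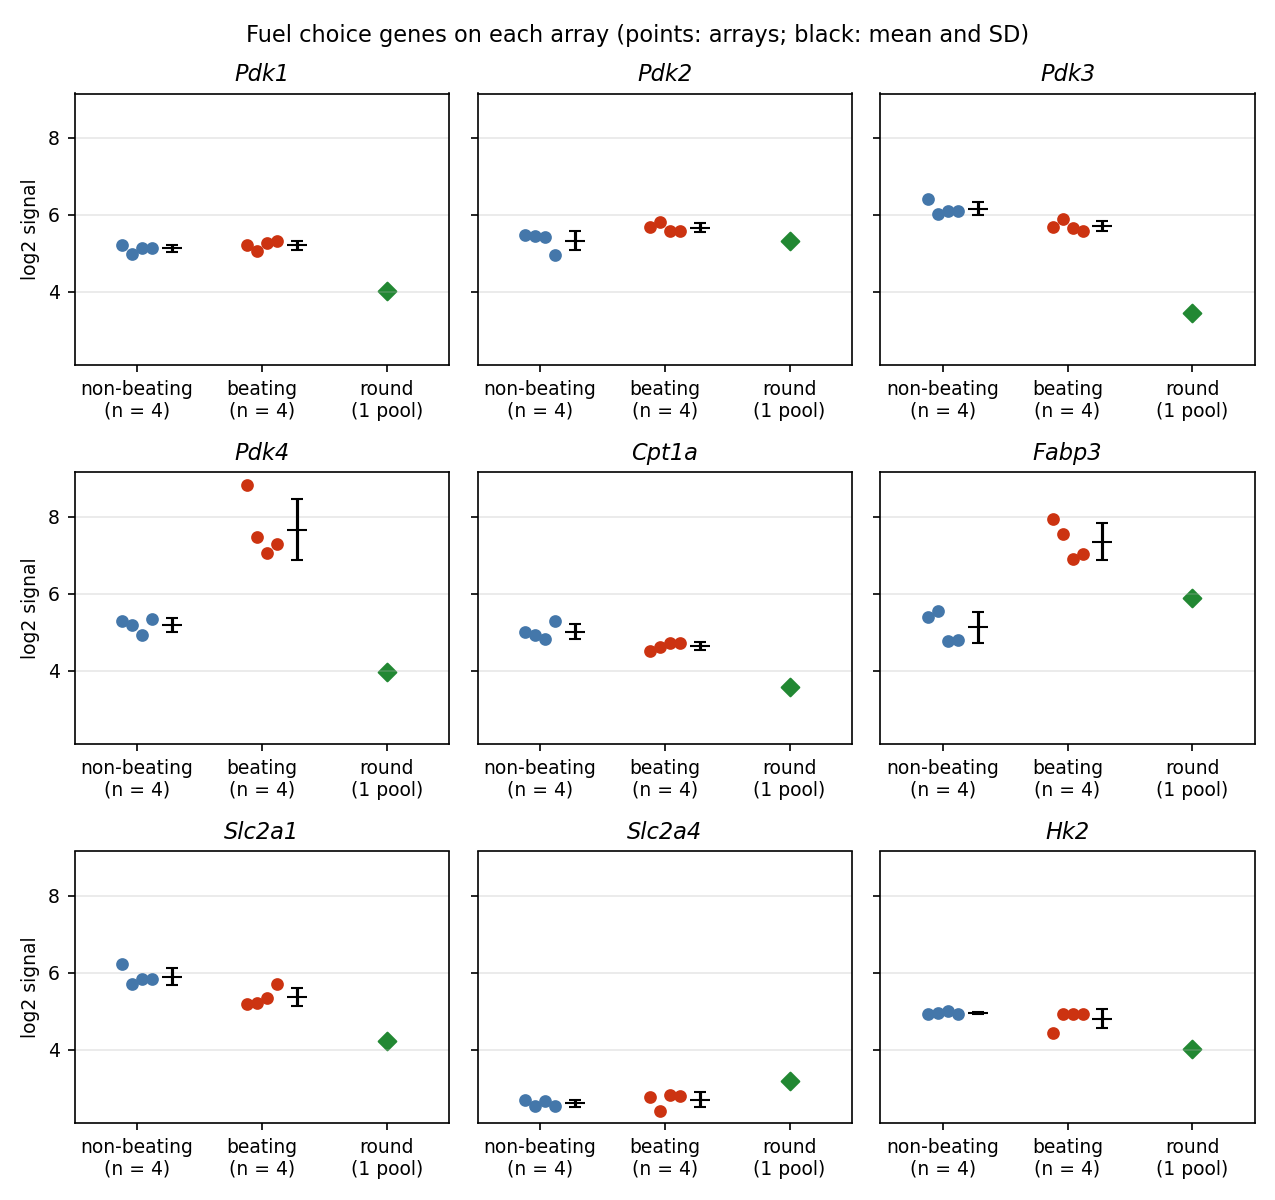
Log2 signal (vertical axis) of the 9 fuel choice genes on each array in non-beating (blue, n = 4), beating (red, n = 4) and round (green diamond, 1 pool) samples; each point is 1 array, and the black marks give mean and SD. Pdk4 and Fabp3 stand apart between the groups, Pdk4 at 7.05 to 8.83 in beating and 4.91 to 5.35 in non-beating samples, while Pdk1, Slc2a4 and Hk2 overlap.

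Pdk4, the kinase isoform that responds to fasting (Entrez Gene 27273), had the largest difference among the members. Its log2 signal was 8.83, 7.48, 7.05 and 7.31 in beating replicates 1 to 4 and 5.29, 5.19, 4.91 and 5.35 in non-beating replicates 1 to 4. All 4 beating arrays lay above all 4 non-beating arrays, by a gap of 1.71 on the log2 scale, and beating replicate 1 was the highest. Pdk4 was 5.59-fold higher, with a log2 difference of 2.48 (standard error 0.36, 95% interval 1.66 to 3.31, adjusted p = 0.00719), and 158 of the 33323 clusters had a larger rise. Without beating replicate 1 the difference was 2.10 (adjusted p = 0.000365), and without each of the 8 arrays in turn it lay between 2.10 and 2.69, with an adjusted p up to 0.0304.

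The other kinases of the family differed less between the groups. Pdk1, a kinase induced by low oxygen in many cells, was at 5.21, 5.05, 5.25 and 5.32 in beating and 5.22, 4.99, 5.15 and 5.15 in non-beating samples. These ranges overlapped, and the interval of the log2 difference, -0.10 to 0.27 around 0.084, excluded a 2-fold change in either direction (adjusted p = 0.621). Pdk2, the most widely expressed isoform, was at 5.675, 5.82, 5.57 and 5.58 in beating samples. In non-beating samples it was at 5.48, 5.44, 5.43 and 4.96, all below the beating values. Its log2 difference of 0.33 (95% interval 0.043 to 0.63) did not pass the test over all clusters (unadjusted p = 0.0295 by limma, adjusted p = 0.179). The interval of Pdk4, which starts at 1.66, lay above those of Pdk1, Pdk2 and Pdk3; the differences between the kinases were not tested.

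Pdk3 (Entrez Gene 236900), which lies on the X chromosome, was the member called lower. It was at 5.68, 5.89, 5.66 and 5.58 in beating and 6.40, 6.02, 6.11 and 6.08 in non-beating samples, without overlap. The difference was 1.37-fold, -0.45 on the log2 scale (standard error 0.10, 95% interval -0.69 to -0.21, adjusted p = 0.0434). This call sat close to the threshold: it was lost by the methods' two-sample test (adjusted p = 0.104), with quantile normalization (0.0866), with trend and robust variances (0.0622), and without each array in turn except beating replicate 2 (adjusted p 0.0739 to 0.0983).

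**Figure D2:**
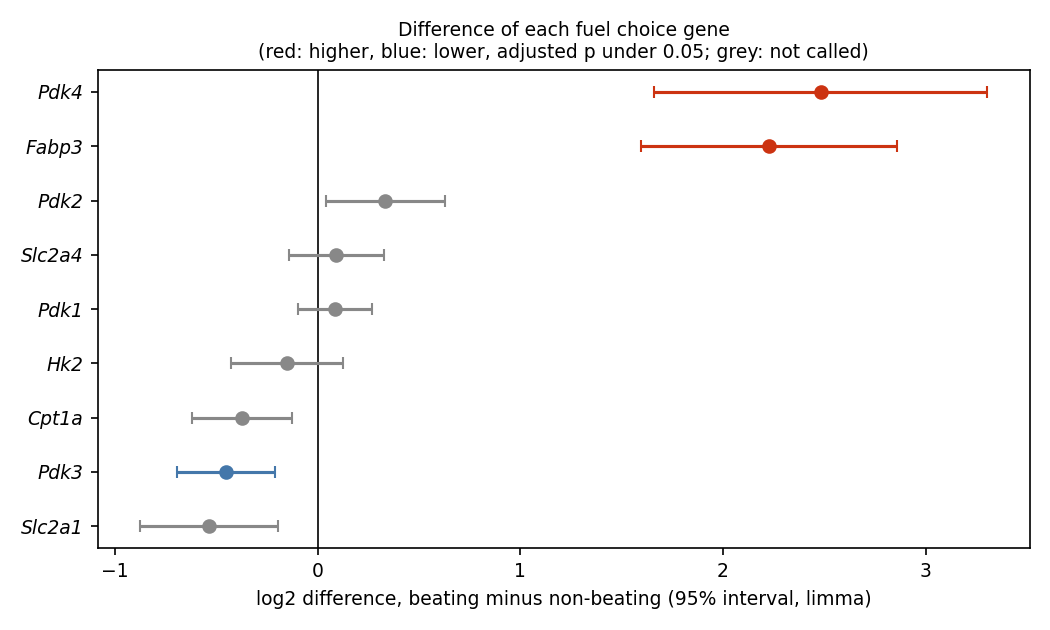
Log2 difference, beating minus non-beating, of the 9 fuel choice genes (horizontal axis) with its 95% interval from limma; red marks higher, blue lower at an adjusted p under 0.05 and grey not called. The intervals of Pdk4 (1.66 to 3.31) and Fabp3 (1.60 to 2.86) lie apart from those of the other 7 genes.

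Fabp3, the cytosolic fatty acid carrier of heart and skeletal muscle (Entrez Gene 14077), was at 7.93, 7.55, 6.90 and 7.03 in beating replicates 1 to 4. In non-beating replicates 1 to 4 it was at 5.38, 5.55, 4.76 and 4.80. The groups were separated by a gap of 1.35, and beating replicate 1 was again the highest. Fabp3 was 4.69-fold higher, with a log2 difference of 2.23 (standard error 0.27, 95% interval 1.60 to 2.86, adjusted p = 0.00353). A second row of the same symbol gave 4.16-fold (adjusted p = 0.00441), with beating values of 7.53, 7.20, 6.53 and 6.75 and non-beating values of 5.23, 5.35, 4.61 and 4.59. Without beating replicate 1 the difference was 2.03.

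Cpt1a, the carnitine palmitoyltransferase of most tissues outside muscle, was slightly lower in signal in the beating samples without passing the test. It was at 4.51, 4.62, 4.71 and 4.71 in beating and 5.01, 4.92, 4.82 and 5.29 in non-beating samples. The groups did not overlap, by a gap of 0.11, and the log2 difference was -0.37 (95% interval -0.62 to -0.13, adjusted p = 0.0876).

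The genes of glucose uptake did not pass the test. Slc2a1 was at 5.19, 5.22, 5.33 and 5.70 in beating and 6.22, 5.70, 5.84 and 5.84 in non-beating samples. Only beating replicate 4 and non-beating replicate 2 met, and they differed by 0.0049. The log2 difference was -0.54 (95% interval -0.88 to -0.20, adjusted p = 0.077), and it passed without beating replicate 4 (adjusted p = 0.0337) and with dim clusters left out (0.0456).

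Slc2a4, the transporter that insulin moves to the surface of muscle and fat cells, gave 2.76, 2.41, 2.82 and 2.79 in beating samples. Its non-beating values were 2.69, 2.54, 2.66 and 2.52, within the same range, and all 8 lay below their array medians. The interval of the log2 difference, -0.14 to 0.33, excluded a 2-fold change of signal in either direction (adjusted p = 0.675). At signals this low a change in transcript amount may not show.

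Hk2, the hexokinase of muscle and of many growing cells, was at 4.42, 4.93, 4.92 and 4.92 in beating and 4.92, 4.95, 5.00 and 4.92 in non-beating samples. The same value, 4.92428, stood on 4 of the 8 arrays, 2 of each group. Such repeats on 4 or more arrays occurred in 13.0% of all clusters, and the small SD of the non-beating group (0.037, n = 4) rests partly on them. The log2 difference was -0.15 (95% interval -0.43 to 0.12, adjusted p = 0.544).

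Promoter windows of the 3 members that passed the test are shown because these genes moved in opposite directions; they run from 250 bases before to 50 bases after the annotated start (RefSeq, GRCm38.p6), 5′ to 3′ on the gene's strand. Capitals mark E-boxes, CANNTG, the letters that myogenic basic helix-loop-helix factors and many others bind.
Pdk4, minus strand, chr6:5496229-5496528: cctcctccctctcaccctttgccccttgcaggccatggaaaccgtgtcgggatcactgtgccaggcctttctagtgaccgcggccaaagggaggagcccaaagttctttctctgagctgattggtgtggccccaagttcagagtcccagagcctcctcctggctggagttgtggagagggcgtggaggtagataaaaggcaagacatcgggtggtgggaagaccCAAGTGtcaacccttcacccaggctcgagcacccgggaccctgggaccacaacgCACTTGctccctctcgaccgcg
Fabp3, plus strand, chr4:130308488-130308787: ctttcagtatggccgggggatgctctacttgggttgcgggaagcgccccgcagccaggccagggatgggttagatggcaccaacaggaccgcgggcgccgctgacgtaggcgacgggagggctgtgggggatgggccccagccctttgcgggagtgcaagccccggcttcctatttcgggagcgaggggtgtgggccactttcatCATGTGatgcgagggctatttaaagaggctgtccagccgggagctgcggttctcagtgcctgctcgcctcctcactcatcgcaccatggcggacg
Pdk3, minus strand, chrX:93832101-93832400: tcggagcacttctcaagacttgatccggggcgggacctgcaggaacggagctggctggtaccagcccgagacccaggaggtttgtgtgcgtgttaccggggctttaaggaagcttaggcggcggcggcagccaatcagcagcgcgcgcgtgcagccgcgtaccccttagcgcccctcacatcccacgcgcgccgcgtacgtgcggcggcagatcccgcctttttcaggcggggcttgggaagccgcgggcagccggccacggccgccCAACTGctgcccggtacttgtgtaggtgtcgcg
Pdk4 held 2 E-boxes and Fabp3 and Pdk3 held 1 each, against at least 1 in 72.3% of all 32851 windows of this length. Both strands were searched, and CANNTG reads as an E-box on either. The consensus site of MEF2 factors, found in 3.19% of all windows, and the nuclear receptor core AGGTCA, found in 16.3%, had no match in these 3 windows. A match or its absence describes these letters only. Of the 10 genes, 8 had a window; Cpt1b and Slc2a4 did not.

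Around the members, 63 further genes of fuel handling were read from 6 lists, of which 3 were higher, 8 lower and 52 did not pass the test. Their median log2 difference was -0.019, beside 0.0073 over all clusters, of which 2.82% were higher and 3.34% lower by the same rule. These shares also stand beside the counts of each list below. The genes of pyruvate entry were the pyruvate dehydrogenase subunits, phosphatases and a subunit of the pyruvate carrier. None of these 9 passed (2 at an unadjusted p under 0.05 by limma, none by the adjusted two-sample test). A link between them and the rise of the kinase Pdk4 was not tested. Pdhx, the component that binds the E3 subunit in the complex, came closest, with a log2 difference of 0.48 (adjusted p = 0.0586). The list's median was 0.14, with 8 of 9 genes above 0.

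Of 11 other genes of glucose uptake, Tbc1d1, a Rab regulator of GLUT4 traffic in muscle, was 1.72-fold higher (adjusted p = 0.0165) and 10 did not pass. Without non-beating replicate 2 the adjusted p of Tbc1d1 was 0.0586. Of 8 genes of the carnitine shuttle and malonyl-CoA, Crat, carnitine acetyltransferase, which buffers acetyl-CoA in mitochondria, was 1.45-fold higher (adjusted p = 0.0311). Its log2 signal was 6.04 ± 0.20 in the beating and 5.50 ± 0.13 in the non-beating group (SD, n = 4 each). That call was lost without each array in turn except beating replicate 2 (adjusted p up to 0.0908). The lists' medians were 0.0088 and -0.046.

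Of 13 genes of fatty acid uptake and activation, Lpl and Fabp5 were lower and 11 did not pass. Lpl, lipoprotein lipase, which frees fatty acids from circulating triglyceride, was 4.37-fold lower (adjusted p = 0.000286). Its log2 signal was 7.57 ± 0.35 in the beating and 9.70 ± 0.12 in the non-beating group (SD, n = 4 each). Fabp5, a fatty acid carrier of macrophages, skin and fat, was 3.50-fold lower (adjusted p = 0.0196), a call lost without beating replicate 2 (0.0574) or non-beating replicate 2 (0.0637). Fabp4, the carrier of adipocytes, had a log2 difference of -1.04 (adjusted p = 0.0658), beside the rise of Fabp3. Cd36, the fatty acid translocase of heart, muscle and fat, was at 0.64 (95% interval -0.33 to 1.62, adjusted p = 0.454).

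Of 7 genes of lactate handling, Slc16a1, Emb and Bsg were lower and 4 did not pass, with a list median of -0.36. Emb, embigin, a chaperone of monocarboxylate transporters, was 2.94-fold lower (adjusted p = 0.00571). Slc16a1, the transporter MCT1, was 1.98-fold lower (0.0344) and Bsg, basigin, another transporter chaperone, 1.38-fold lower (0.0359). Without 1 array at a time the call of Slc16a1 was lost for 6 arrays (all but beating replicate 4 and non-beating replicate 4, adjusted p up to 0.102) and that of Bsg for 7 (all but non-beating replicate 4, up to 0.106). Ldha and Ldhb, the lactate dehydrogenase subunits, had log2 differences of 0.11 and -0.019, and neither passed.

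Of 15 regulators of fuel use, Prkaa2 was higher, Pparg, Hif1a and Klf15 were lower and 11 did not pass. Hif1a, the oxygen-sensing factor that is known to drive Pdk1 and Slc2a1, was 1.72-fold lower (adjusted p = 0.00445), with a log2 signal of 8.47 ± 0.19 in the beating and 9.25 ± 0.090 in the non-beating group (SD, n = 4 each). Pparg, the master factor of adipocytes, was 1.73-fold lower (adjusted p = 0.0246) and Klf15, a factor of muscle and fat metabolism, 1.43-fold lower (0.0314). Prkaa2, the AMP-activated kinase subunit abundant in muscle, was 1.46-fold higher (0.0337). Its log2 signal was low, 3.26 ± 0.15 in the beating and 2.72 ± 0.19 in the non-beating group (SD, n = 4 each). The non-beating values all lay below their array medians. When single arrays were left out, the call of Prkaa2 was lost for 6 of the 8 (all but beating replicate 3 and non-beating replicate 1, adjusted p up to 0.0843) and that of Klf15 for 6 (all but beating replicate 1 and non-beating replicate 2, up to 0.0896). That of Pparg was lost for 4 (beating replicate 3 and non-beating replicates 1 to 3, up to 0.0634). Those of Hif1a, Lpl and Emb held without each array, and they were the 3 of the 11 called pathway genes that also passed the adjusted two-sample test. Ppara and Ppargc1a, regulators of fatty acid oxidation, had log2 differences of -0.0053 and 0.41 and did not pass.

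**Figure D3:**
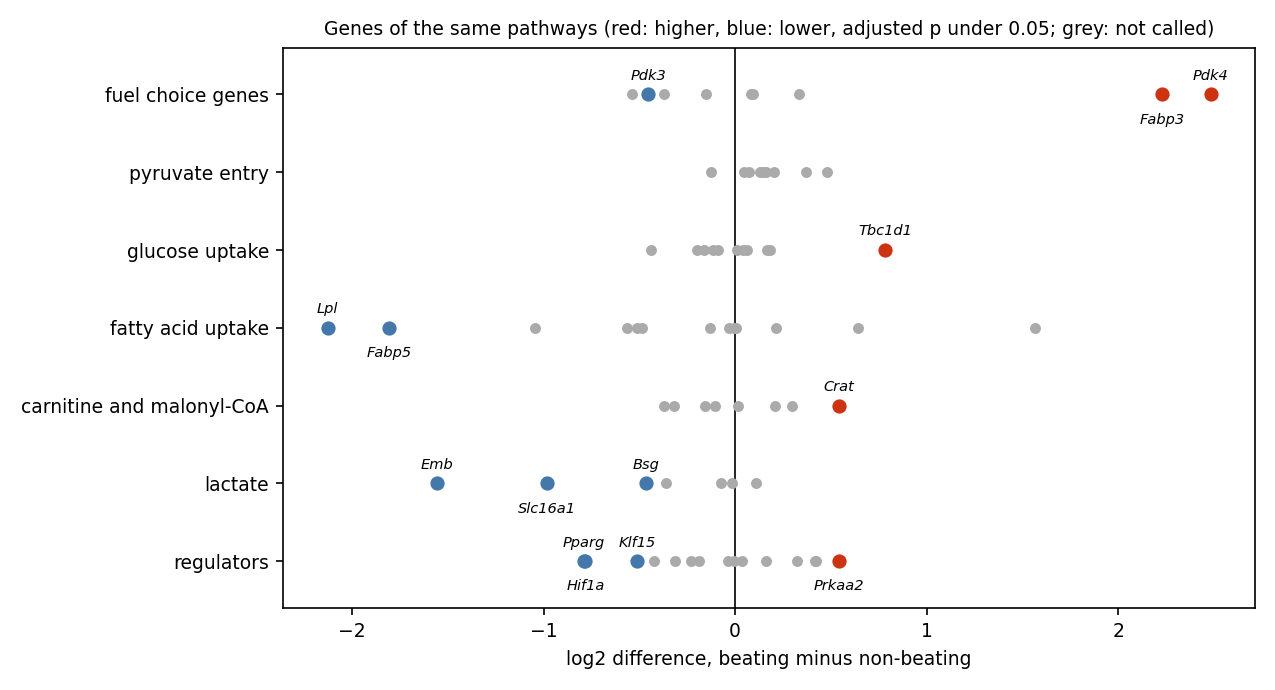
Log2 difference, beating minus non-beating (horizontal axis), of each gene in the fuel choice genes and in 6 lists of the same pathways; large red and blue points passed limma's test as higher and lower, with names, and small grey points did not. Pdk4 and Fabp3 lie above 2, and none of the 9 genes of pyruvate entry passed.

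Markers of other cells are given by list, and the part of such cells in these differences was not tested. White adipocyte markers had a list mean of 2.88 to 3.12 in beating and 3.33 to 3.60 in non-beating samples. Of the 9, 2 were lower (Adipoq 3.86-fold, Cebpa 2.31-fold), beside the lower Lpl, Fabp5 and Pparg, and 7 did not pass. The list's median log2 difference was -0.15, with 2 genes above 0. Of the 9, 4 lay below the array medians on all 8 arrays, where a difference may not show. Without 3 arrays in turn the call of Adipoq was lost (beating replicates 2 and 3 and non-beating replicate 3, adjusted p up to 0.0686). Macrophage markers had a list mean of 3.28 to 5.08 against 5.08 to 6.48, with 10 of 10 below 0 in difference and none passing (8 at an unadjusted p under 0.05 by limma, 0 by the adjusted two-sample test). Of 6 fibroblast markers Pdgfra, Dcn and Thy1 were lower, Pdgfra not without non-beating replicate 2 or 3 (adjusted p up to 0.0557). Their list mean was 7.20 to 7.56 in beating and 8.08 to 8.78 in non-beating samples. Endothelial markers had list means of 3.72 to 5.98 and 4.84 to 6.03, with 0 of 6 passing (0 at an unadjusted p under 0.05 by limma and 0 by the adjusted two-sample test). None of 8 brown adipocyte markers passed (1 at an unadjusted p under 0.05 by limma, 0 by the adjusted two-sample test). Their list mean was 2.81 to 3.05 against 2.69 to 2.78, and 5 of them, Ucp1 and Cidea among them, lay below the array medians on all 8 arrays, beside the higher Fabp3, which brown fat also expresses. Beating replicate 1, the highest for Pdk4 and Fabp3, had the highest skeletal muscle mean of the beating arrays (9.01). Its heart (4.30), white adipocyte (3.12) and brown adipocyte (3.05) means were also the highest of the beating arrays. Its macrophage (3.28), endothelial (3.72) and fibroblast (7.20) means were the lowest of them.

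The genes whose pattern over the 8 day 28 arrays was nearest to a member were found by the root mean square distance of mean-centred log2 values among 17446 named genes. Nearest to Pdk4 were Mcpt8, a protease of basophils (distance 0.19), and Prr32 (0.24). Nearest to Fabp3 were Popdc2, a cAMP-binding membrane protein of heart and skeletal muscle (0.18), and Chrnd, a subunit of the muscle acetylcholine receptor (0.24). The log2 signal of Popdc2 was 5.06 ± 0.53 in the beating and 2.83 ± 0.23 in the non-beating group (SD, n = 4 each). Nearest to Pdk3 were Antkmt (0.045) and Elac1 (0.074). Smaller differences allow smaller distances, so the distances do not rank the members.

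In the round pool most of the fuel choice genes had a lower signal than on the other arrays, although 7 of the 9 lay above the pool's own median of 3.54 (all but Pdk3 and Slc2a4). The pool is 1 sample without replicate, of another day and of amplified RNA from few cells, so nothing measured in it has an error or a test. Of the 9 members, 6 lay below all 8 other arrays (Pdk1, Pdk3, Pdk4, Cpt1a, Slc2a1 and Hk2), 1 above (Slc2a4) and 2 within their range. Over all clusters 24.4% lay below and 46.4% above all 8 others. Round values depended on the level of the cluster. Over 4 equal groups of clusters from dimmest to brightest, the median difference from the non-beating mean was 0.32, 0.58, 0.19 and -1.29 on the log2 scale, and 6 of the 9 members fall in the brightest group. Differences are therefore given beside that shift.

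Pdk4 was at 3.97 in the round pool, -1.22 from the non-beating mean, near the shift of its level group. It was -3.70 from the beating mean, where the shift of that group was -1.15. Fabp3 was at 5.88, above all 4 non-beating and below all 4 beating arrays, 0.76 above the non-beating mean where its level group shifted by -1.29. The same shift stands beside the other members of the brightest group. Pdk3, at 3.45, was -2.70 from the non-beating mean, and Pdk2, at 5.31, was -0.018 from it. Pdk1, at 4.00, was -1.12 and Slc2a1, at 4.22, was -1.68 from it. Cpt1a and Hk2 fall in the next group, whose shift was 0.19, in the opposite direction to theirs. Both sit at that group's upper edge. By beating mean they lay above 71.5% and 73.1% of clusters, and by non-beating mean above 75.1% and 74.6%. Pdk1, in the brightest group, lay above 77.0% and 76.1%. A group's median shift may therefore not describe genes so near the edge. Cpt1a, at 3.57, was -1.44 and Hk2, at 4.03, was -0.93 from the non-beating mean. Slc2a4 was at 3.19, 0.59 above the non-beating mean, beside a shift of 0.58 in its level group.

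The order of levels was beating, non-beating, round for Pdk4, and beating, round, non-beating for Fabp3. For Pdk3, Cpt1a and Slc2a1 the order was non-beating, beating, round, where the beating and non-beating values of Slc2a1 overlapped. Quantile normalization of the 9 arrays turned the round value of Pdk2 to 0.91 above the non-beating and 0.55 above the beating mean. Slc2a4 then lay within the range of the other arrays, and Pdk2 above it, beside 35.6% of all clusters above. With median centring no member lay above, beside 25.1% of all clusters. Under both other scalings the 6 members named above stayed below all 8 other arrays, and median centring added Pdk2 to them, beside 29.2% of all clusters after quantile normalization and 47.7% after median centring. Fabp3 stayed between the 2 group means under both, at 1.82 and 0.30 above the non-beating mean.

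**Figure D4:**
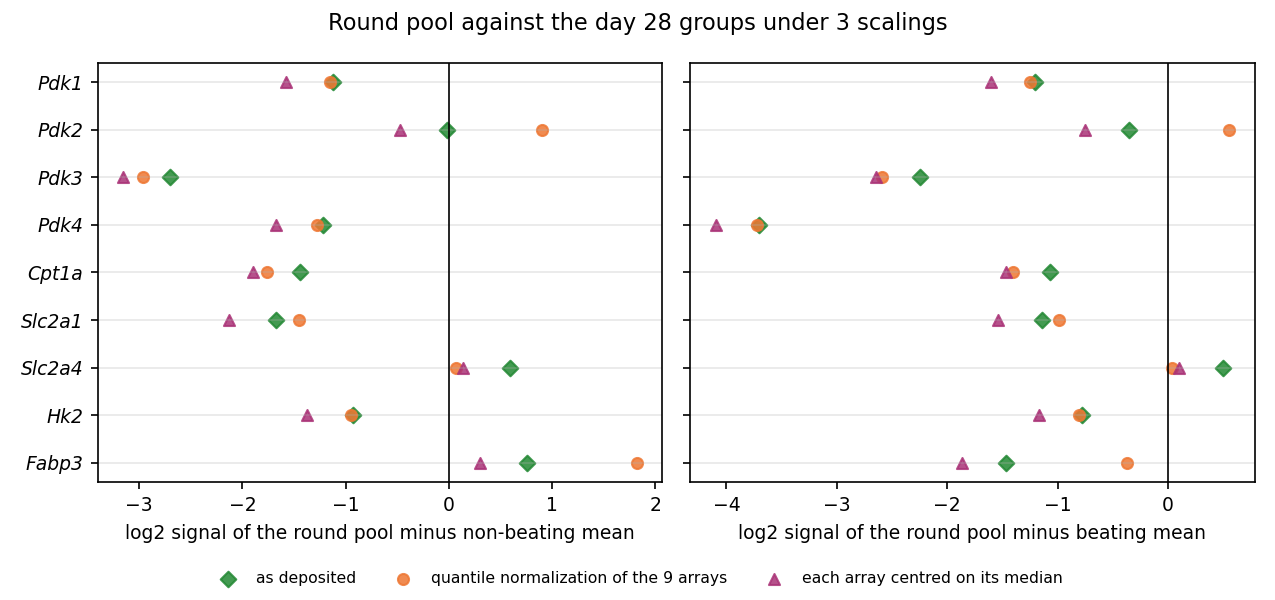
Log2 signal of the round pool minus the non-beating mean (left) and minus the beating mean (right) for the 9 fuel choice genes, as deposited (green), after quantile normalization of the 9 arrays (orange) and with each array centred on its median (purple). Fabp3 is above the non-beating and below the beating mean under each scaling; the sign of Pdk2 depends on the scaling.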

How the data were processed

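RNA of 4 beating, 4 non-beating and 1 round sample was amplified and read on Affymetrix Mouse Gene 1.0 ST arrays. The deposited values are log2 signals; for their own analysis the authors log2-scaled, normalised and mean-centred the raw data in BRB-ArrayTools, and the steps behind the deposited table are not given in the sources used here. Those values were not changed here. Symbols were updated by gene number, and rows with several symbols were left out. Differences were fitted by lmFit and eBayes of limma 3.58.1, run under R 4.3.3, over all 33323 clusters. In simulated arrays of this comparison (33323 clusters), 76 of 100 changes of 1 and 89 of 100 changes of 2 on the log2 scale were recovered, with 7 false calls. The simulation left all other clusters unchanged and drew independent normal noise, whereas 6.16% of the real clusters were called. Recovery and false calls in the real arrays may therefore differ.

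Named genes were the 10 members, up to 4 called genes of each list and the 2 nearest patterns; genes outside this rule (Pdhx, Fabp4, Cd36, Ldha, Ldhb, Ppara, Ppargc1a, Tnni3, Nppa, Ryr2, Ucp1 and Cidea) were named after their values were seen. The members and lists were chosen with earlier results of these data known. Of the listed genes, 8 had no row of 1 symbol. The fits were repeated with other scalings (quantile, median), without dim clusters, with a 1.5-fold prefilter, with trend and robust variances, with weighted arrays, with the univariate test that the methods name, with a replicate block, with the second Fabp3 row and without each array in turn.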

Additional observations from a re-analysis of the deposited data

Results flagged for a closer look

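Among 18 groups of 4 arrays (9 members in 2 groups), 3 held an array far from the others; chance gives this in about 5% of groups. Hk2 was at 4.42 in beating replicate 1, with a gap to the nearest array of 0.985 of the group's range. Pdk2 was at 4.96 in non-beating replicate 4 (0.903 of the range), and Slc2a4 at 2.41 in beating replicate 2 (0.846), where the signal lay below the array median. None of these 3 members passed the test with or without that array.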

How the results depend on the processing

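Pdk4 and Fabp3 were the 2 members called higher under all 16 alternatives in which each was tested, with adjusted p up to 0.0418 and 0.0269. The count of members called lower, 1 in the main analysis, was 0 with quantile normalization, the 1.5-fold prefilter (which leaves out Pdk3), eBayes with trend and robust, the adjusted two-sample test and the replicate block, 2 with dim clusters left out, and 0 to 1 without 1 array at a time. Pathway genes called higher moved from 3 to 1 with the prefilter, 0 with the two-sample test, and 0 to 2 without 1 array at a time; those called lower moved from 8 to 3 with the two-sample test and 4 to 7 without 1 array. Members of the round pool above all 8 other arrays went from 1 to 0 with median centring. No direction of a member's beating against non-beating difference turned. With quantile normalization Prkaa2 (adjusted p = 0.0505) and Bsg (0.0602) also lost their calls. Causes were not tested. Signals below the array medians, as for Slc2a4, may lie near background, where a difference may not show.

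With the replicate number as a block, 2 members were higher and 0 lower. Deviations from the group means correlated between samples of the same number at -0.012 to 0.028 over clusters. Of the 4 beating samples, 0 correlated best with their own number. Correlations over all clusters cannot show whether samples of the same number share dishes, and the main fit did not pair them. Limma with the block gave an adjusted p of 0.0016 for Fabp3 and 0.0214 for Pdk4. Pdk3 had an adjusted p of 0.106 with the block.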

Other observations

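Genes of the wider fuel pathways differed widely in the round pool, which has no replicate and no test. Hif1a was at 2.80 in the pool, against means of 9.25 in non-beating and 8.47 in beating samples. Lpl was at 3.82, against 9.70 in non-beating and 7.57 in beating samples, and Emb at 3.37, against 9.25 and 7.70. Hif1a and Emb lay below the pool's own median of 3.54. Crat was at 5.98, against means of 5.50 in non-beating and 6.04 in beating samples. Bsg was at 7.88, against 8.56 and 8.09. In the brightest group of clusters the pool's median difference from the non-beating mean was -1.29.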
